A study of Mus musculus with 6 samples.

Results

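The mRNAs of complex I subunits that the mitochondrial genome itself encodes were examined in hearts of control mice and of conditional Elac2 knockout mice. They were taken by name from the count tables as 6 rows out of 51888: mt-Nd1, mt-Nd2, mt-Nd3, mt-Nd5, mt-Nd6 and a joint row for mt-Nd4l and mt-Nd4, written mt-Nd4l_4. These 6 rows cover the 7 complex I genes of the mitochondrial genome and stand beside 5 other mitochondrial mRNA rows and 2 rRNA rows. All 6 passed the filter on low counts.

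RNA was taken from whole hearts of C57BL/6 mice whose age the labels do not give. The control group (L/L, genotype Elac2 +/+) and the knockout group (L/L, cre, genotype Elac2 -/-) had 3 mice each. In the conditional line an exon of Elac2 is flanked by loxP sites and is removed by cre from a muscle creatine kinase promoter, so cells of the heart without that promoter's activity keep the gene, and cre is present only in the knockout group. The count libraries held 9850100 to 14461110 reads. Elac2 was at 13.01 to 15.05 CPM (counts relative to library size, scaled by TMM, a factor per library that centres the bulk of genes) in controls and at 5.36 to 6.52 CPM in knockouts.

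Complex I is the NADH dehydrogenase of the respiratory chain, which passes electrons from NADH to ubiquinone and pumps protons. The mitochondrial subunits form the core of its membrane arm, and the catalytic arm is made of nuclear subunits. Mitochondrial DNA is copied into long RNAs from each strand in which most mRNAs and rRNAs are separated by tRNAs. RNase P cuts at the 5′ end of each tRNA and RNase Z, the product of Elac2, cuts at its 3′ end, so that the 3′ cut of a tRNA is also what opens the 5′ end of an mRNA that follows it directly.

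Each of the 6 rows begins behind a tRNA on its own strand. By the coordinates of GENCODE M21 on GRCm38, which mm10 also names, mt-Nd1 lies at 2751 to 3707 of the mitochondrial chromosome (chrM) behind mt-Tl1, mt-Nd2 at 3914 to 4951 behind mt-Tm, mt-Nd3 at 9459 to 9806 behind mt-Tg and mt-Nd5 at 11742 to 13565 behind mt-Tl2, each with a gap of 0 bases and on the plus strand. The joint row spans 9877 to 11544 and starts after a gap of 1 base behind mt-Tr. mt-Nd6 lies at 13552 to 14070 on the minus strand, directly behind mt-Te, and its last 14 bases overlap the end of mt-Nd5 on the opposite strand. These mRNAs have no introns, and the rows are protein-coding sequence. The 30 bases at each join where RNase Z would cut are shown here because they are what all these mRNAs share. The first 15 are the end of the tRNA, the rest are the start of the mRNA, and capitals mark its first codon, 5′ to 3′ in the sense of the mRNA (GENCODE transcripts).
mt-Tl1 to mt-Nd1, chrM:2736-2765, plus strand: atcctctccctaataGTGttctttattaat
mt-Tm to mt-Nd2, chrM:3899-3928, plus strand: atccttcccgtactaATAaatcctatcacc
mt-Tg to mt-Nd3, chrM:9444-9473, plus strand: acccagaagagagtaATTaacctgtacact
mt-Tl2 to mt-Nd5, chrM:11727-11756, plus strand: atccaaataaaagtaATCaatattttcaca
mt-Te to mt-Nd6, chrM:14056-14085, minus strand: tgctgtgtagaaataATGaataattatatt
end of mt-Tr, before the joint row: gttcataattaccaa
start of mt-Nd4l, after the gap: ATGccatctaccttc

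At the 5 joins with no gap the first codon of the mRNA follows the last tRNA base without a leader. The 3′ ends differ more: mt-Nd1 and mt-Nd2 each overlap the next tRNA by 2 bases, mt-Nd3 and mt-Nd4 end 1 base before a tRNA, and neither mt-Nd5 nor mt-Nd6 has a tRNA of its own strand directly behind it. The rows also differ in length, from 348 bases for mt-Nd3 to 1824 for mt-Nd5. mt-Nd6 has the base makeup of the other strand, with 28.1% G and 5.97% C, against 7.996 to 11.6% G and 22.1 to 27.7% C in the 5 plus-strand rows.

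The 3 controls differed widely in these mRNAs, which bears on each value that follows. The summed level of the 6 rows was 7559, 21749 and 30711 CPM in controls 1, 2 and 3 and 10024, 11551 and 10361 CPM in the knockouts. Control 1 lay below every knockout library and controls 2 and 3 above them. The highest control was 6.23 times the lowest for mt-Nd4l_4, 5.23 times for mt-Nd6, 4.96 times for mt-Nd2, 4.48 times for mt-Nd5 and 3.76 times for mt-Nd1, but 1.68 times for mt-Nd3. Among knockouts that range was 1.07 to 1.27 times. Mitochondrial rows, rRNA included, took 49.3, 61.1 and 58.5% of all counts in controls 1, 2 and 3 and 33.3 to 36.7% in knockouts (two-sided exact permutation p = 0.1, the smallest that 3 against 3 allows). The mitochondrial mRNA rows alone took 6.21, 9.11 and 8.95% of all counts in controls 1, 2 and 3 and 5.10 to 5.64% in knockouts. In bulk heart RNA, fewer cells of a type and less RNA per cell cannot be told apart.

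Relative to the bulk of genes, 3 of the 6 mRNA rows fell in the knockout hearts (mt-Nd6, mt-Nd5 and mt-Nd4l_4), 1 rose (mt-Nd3), and mt-Nd1 and mt-Nd2 did not pass the test. The test was edgeR's quasi-likelihood test with Benjamini-Hochberg adjustment over 14302 genes, at an adjusted p under 0.05. By the same test 17.8% of all genes were lower and 18.7% higher in knockouts. The median log2 fold change over the 6 rows was -1.24, against -0.01 over all genes tested. The CPM of the groups did not overlap for 2 lower rows and 1 higher row, and the same held for 24.5% (lower) and 26.2% (higher) of all genes. The authors' deposited table also has 3 of these rows lower and 1 higher, against 13.1% and 14.5% of the genes given an adjusted p there, with log2 fold changes from -2.60 for mt-Nd6 to 0.65 for mt-Nd3.

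**Figure D1:**
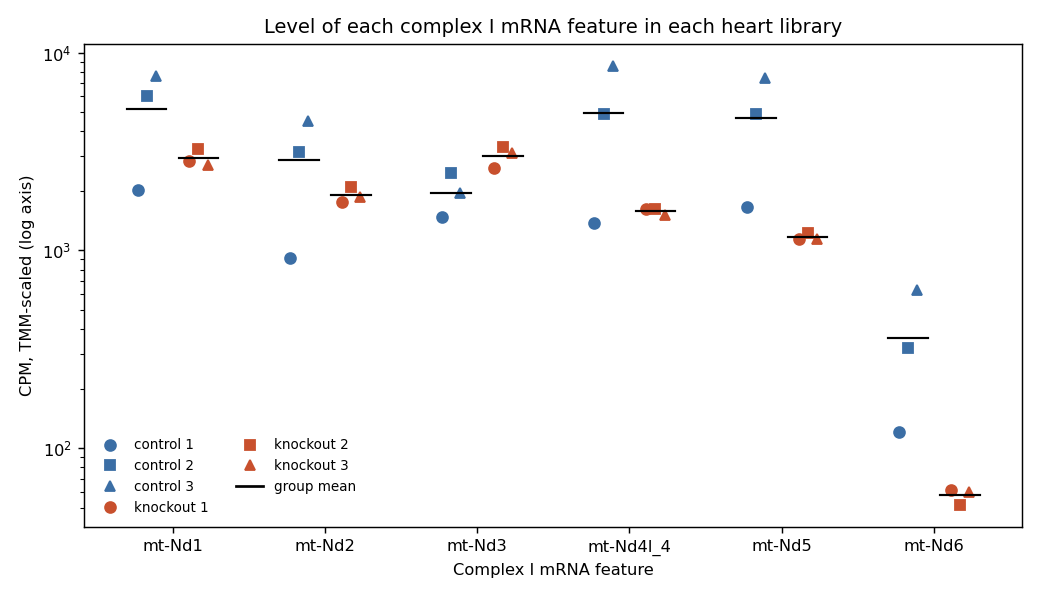
Level of each complex I mRNA row in CPM (TMM-scaled, log axis) in each of the 3 control and 3 knockout libraries, with the group mean as a bar. Knockout points lie close together, control points are spread, and only mt-Nd3 has all knockout points (2624 to 3319.5 CPM) above all control points (1470 to 2470 CPM).

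The mt-Nd6 mRNA had the lowest level of the 6 rows. It encodes a membrane-arm subunit and is the only mRNA copied from the other strand. It was at 121, 323 and 633 CPM in controls 1, 2 and 3 and at 61.3, 51.7 and 60.1 CPM in knockouts 1, 2 and 3. Every knockout was below every control, and the gap to control 1 was much smaller than that to the other controls. The log2 fold change was -2.64 (SE 0.46, edgeR adjusted p = 1.93e-03). Without control 3 it was -1.94 (adjusted p = 5.04e-03) and without control 1 it was -3.04 (adjusted p = 5.00e-04). No source used here says if the counting was stranded, and without that, sense and antisense reads over mt-Nd6 cannot be told apart.

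The mt-Nd5 mRNA encodes a large proton-pumping subunit at the far end of the membrane arm. It was at 1660, 4895 and 7436 CPM in controls 1, 2 and 3 and at 1137, 1222 and 1139 CPM in knockouts. The groups did not overlap here either, with control 1 again nearest to the knockouts. The log2 fold change was -2.00 (SE 0.43, edgeR adjusted p = 5.33e-03), and it ranged from -2.40 to -1.49 when 1 library at a time was left out, with the call kept in all 6 of these fits.

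The mt-Nd4l and mt-Nd4 genes overlap by 7 bases and share 1 mRNA and 1 row, and mt-Nd4 encodes another proton-pumping subunit. This row was at 1374, 4897 and 8565 CPM in controls 1, 2 and 3 and at 1623, 1622 and 1518 CPM in knockouts. Control 1 was below all knockouts, so the groups overlapped, and the fall rested on controls 2 and 3. The log2 fold change was -1.64 (SE 0.49, edgeR adjusted p = 0.0266). The call was lost without control 2 (adjusted p = 0.0680), control 3 (-0.98, adjusted p = 0.125), knockout 2 (adjusted p = 0.0782) or knockout 3 (adjusted p = 0.0571). It was also lost with the replicate number as a block (-1.31, adjusted p = 0.0700), with limma-voom (-1.31, adjusted p = 0.0658) and with edgeR's robust fit (adjusted p = 0.0853).

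The mt-Nd3 mRNA encodes a small subunit near the junction of the 2 arms of the complex, and it was higher in knockouts. It was at 1470, 2470 and 1947 CPM in controls 1, 2 and 3 and at 2624, 3319.5 and 3092 CPM in knockouts 1, 2 and 3. All knockouts were above all controls, the closest being control 2 and knockout 1. The log2 fold change was 0.62 (SE 0.22, edgeR adjusted p = 0.0466). That call was lost without control 1 (0.45, adjusted p = 0.116), control 3 (adjusted p = 0.104), knockout 2 (adjusted p = 0.144) or knockout 3 (adjusted p = 0.0903), while the value stayed above 0 in each.

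The mt-Nd1 and mt-Nd2 mRNAs, which lie first along the genome and encode subunits near the quinone site and in the proton-pumping part, did not pass the test. mt-Nd1 was at 2023, 6016 and 7607 CPM in controls 1, 2 and 3 and at 2827, 3243 and 2696 CPM in knockouts (log2 fold change -0.84, SE 0.39, edgeR adjusted p = 0.117). mt-Nd2 was at 912, 3148 and 4523 CPM in controls and at 1751, 2094 and 1856 CPM in knockouts (-0.59, SE 0.44, adjusted p = 0.317). For both, the knockouts lay between control 1 and the other controls. Without control 1 both were called lower, mt-Nd1 at -1.22 (adjusted p = 3.43e-03) and mt-Nd2 at -1.01 (adjusted p = 8.90e-03).

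**Figure D2:**
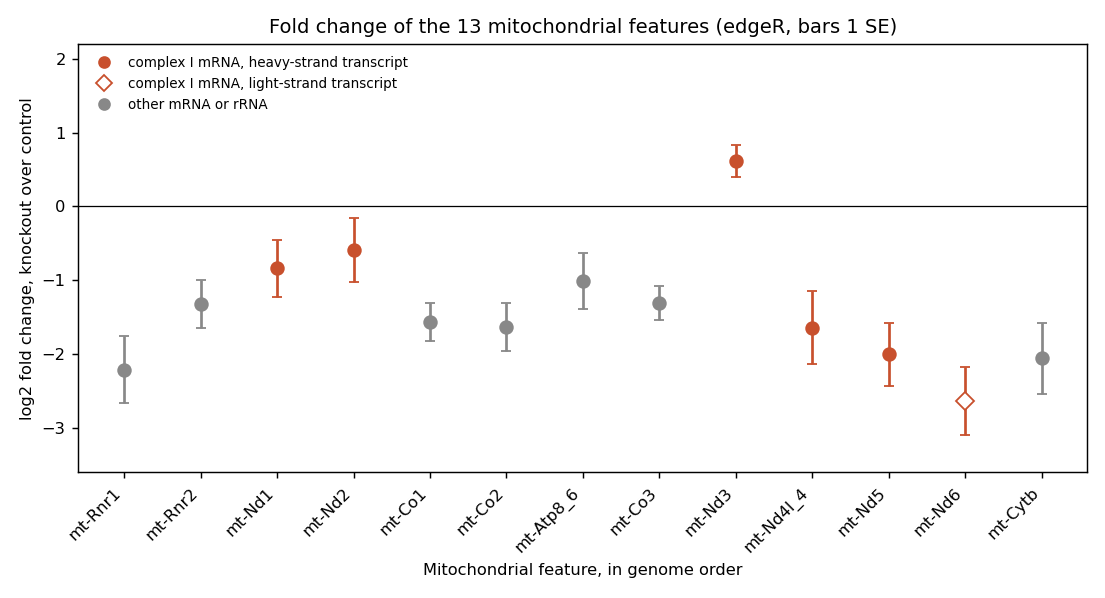
Log2 fold change, knockout over control, of the 13 mitochondrial rows in genome order, with 1 SE on each side (edgeR, TMM). Among the complex I mRNAs, mt-Nd1 and mt-Nd2 are at -0.84 and -0.59, mt-Nd3 is at 0.62, and the values from mt-Nd4l_4 to mt-Nd6 run from -1.64 to -2.64. The open diamond is mt-Nd6, copied from the other strand.

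In genome order the fold changes did not run in 1 direction along the plus strand. The row with a rise, mt-Nd3, lies between mt-Co3, with a log2 fold change of -1.31, and mt-Nd4l_4 at -1.64. Over the 5 plus-strand complex I rows Pearson's r of fold change with start position was -0.30, and over all 6 rows r with length was -0.42. Both are given as descriptions over few points that share the same libraries.

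The scaling sets part of these values. With total library size alone the all-gene median moved from -0.01 to 0.68 on the log2 scale. On that scale mt-Nd6, mt-Nd5 and mt-Nd4l_4 were at -1.85, -1.22 and -0.84, each still called lower, mt-Nd3 was at 1.35, called higher, mt-Nd1 was at -0.06 and mt-Nd2 turned to 0.20. The 6 rows together took 0.704, 1.56 and 2.19% of all counts in controls 1, 2 and 3 and 1.31, 1.46 and 1.31% in knockouts, so the groups overlapped (exact permutation p = 0.7). Shares within the mitochondrial mRNA counts do not depend on the scaling of nuclear genes.

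Within the 11 mitochondrial mRNA rows, the complex I mRNAs summed together took more of the counts in knockouts. Their share was 11.3, 17.1 and 24.5% in controls 1, 2 and 3 and 24.8, 25.8 and 25.6% in knockouts 1, 2 and 3, or 17.7 ± 6.61% against 25.4 ± 0.537% (SD, n = 3 each, two-sided exact permutation p = 0.1). Control 3 lay just below the lowest knockout and the groups did not overlap. The difference was 4.61 percentage points without control 1 and 11.2 without control 3, against 7.77 with all libraries. The largest part with all libraries was that of mt-Nd3, whose share was 2.203, 1.94 and 1.55% in controls and 6.50, 7.43 and 7.64% in knockouts. That is a difference of 5.29 percentage points, and 5.11 without control 3, and a ratio of 3.78 between the mean shares. The mean shares of mt-Nd4l_4, mt-Nd5 and mt-Nd6 were lower in knockouts. A complex I share without mt-Nd3 was not tested. Among the 5 other mRNA rows, the share of mt-Co1 was lower, at 46.3 ± 6.86% in controls and 38.6 ± 0.624% in knockouts. That of mt-Atp8_6 was higher, at 7.24 ± 2.04% against 9.66 ± 0.0780% (SD, n = 3 each). Neither overlapped between the groups, while the shares of mt-Co2, mt-Co3 and mt-Cytb did.

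The shares of mt-Nd1 and mt-Nd2 were also above those of every control. mt-Nd1 took 3.03, 4.74 and 6.07% in controls 1, 2 and 3 and 6.9996, 7.26 and 6.66% in knockouts. mt-Nd2 took 1.37, 2.48 and 3.61% in controls and 4.34, 4.68 and 4.59% in knockouts. These 2 mRNAs were thus higher as a share of mitochondrial mRNA counts while their CPM relative to all genes did not pass the test. mt-Nd6 went the other way, at 0.181, 0.254 and 0.505% in controls and 0.152, 0.116 and 0.149% in knockouts, with no overlap. The shares of mt-Nd4l_4 (4.25 ± 2.41% against 3.80 ± 0.200%) and mt-Nd5 (4.09 ± 1.74% against 2.79 ± 0.0467%, SD, n = 3 each) overlapped. Two-sided exact permutation p was 0.1 for mt-Nd1, mt-Nd2, mt-Nd3 and mt-Nd6, or 0.15 after Benjamini-Hochberg adjustment over the 6 rows, 0.4 for mt-Nd5 and 0.8 for mt-Nd4l_4.

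**Figure D3:**
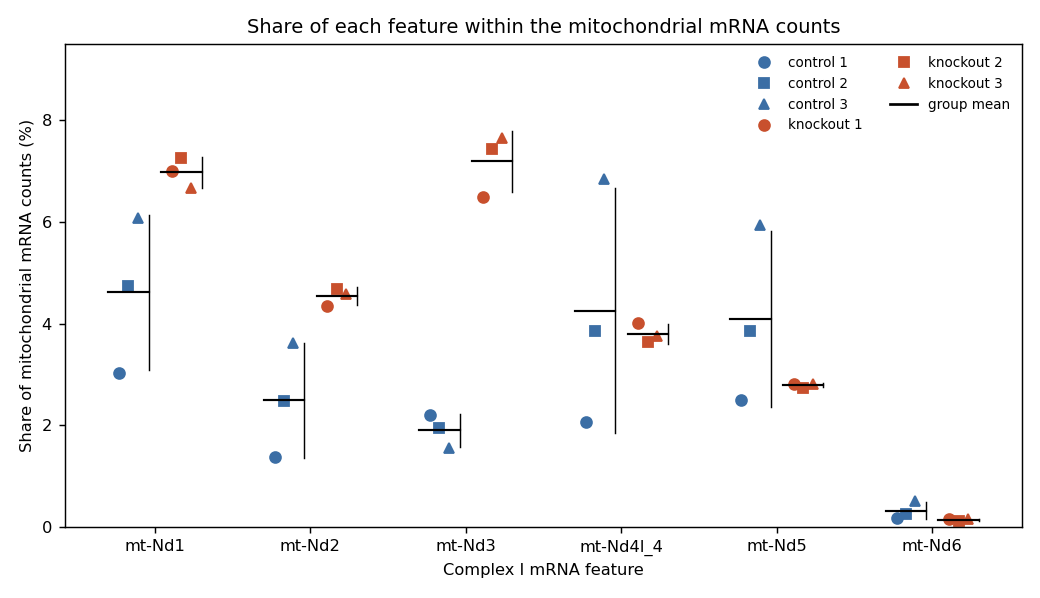
Share (%) that each complex I mRNA row takes of the counts of the 11 mitochondrial mRNA rows, per library, with the group mean (horizontal bar) and 1 SD on each side (vertical bar). The share of mt-Nd3 is 1.55 to 2.203% in controls and 6.50 to 7.64% in knockouts, while mt-Nd4l_4 and mt-Nd5 overlap between the groups.

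A fit with the mitochondrial mRNA counts as the library size gave the matching fold changes. On that scale 70.6% of all genes were called higher and 1.04% lower, since the scale follows the mitochondrial mRNAs. The mt-Nd3 row was higher by 1.92 (SE 0.43, edgeR adjusted p = 5.61e-05) and mt-Nd6 lower, at -1.18 (SE 0.41, adjusted p = 8.64e-03). The values of mt-Nd1, mt-Nd2, mt-Nd4l_4 and mt-Nd5 were 0.60, 0.87, -0.16 and -0.55 and were not called (adjusted p = 0.0525 to 0.719).

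Ratios within a library set the strands and neighbours side by side. mt-Nd6 over the summed counts of the 5 plus-strand rows was at log2 ratios of -5.94, -6.05 and -5.57 in controls 1, 2 and 3 and -7.34, -7.80 and -7.42 in knockouts. The controls, which differed several-fold in level, were close to each other on this ratio, and the groups did not overlap. The difference of the means was -1.67 (SD 0.25 and 0.24, n = 3 each, two-sided exact permutation p = 0.1). With any 5 of the 6 libraries the difference was -1.76 to -1.52. With mt-Nd1 alone as the denominator, the only row of these 5 without a near-identical nuclear copy, it was -1.70. A ratio within the plus strand, mt-Nd5 over mt-Nd1, was also lower in knockouts, and it is given without a test. It was at -0.21 ± 0.15 in controls and -1.32 ± 0.08 in knockouts (mean log2 ratio, SD, n = 3 each), without overlap.

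mt-Nd3 over the summed counts of mt-Nd1, mt-Nd2, mt-Nd4l_4 and mt-Nd5 was at -2.02, -2.94 and -3.85 in controls 1, 2 and 3 and at -1.48, -1.30 and -1.22 in knockouts (difference of the means 1.60, two-sided exact permutation p = 0.1). Here the controls were spread and control 1 was nearest to the knockouts. Against its upstream neighbour mt-Co3, the cytochrome c oxidase mRNA separated from it by mt-Tg, the controls were close together, at -3.34, -3.23 and -3.10, and the knockouts were at -1.46, -1.19 and -1.24. The tested ratio of mt-Nd3 to the other plus-strand rows was itself chosen with earlier results of these data known. The ratio to mt-Co3 and the other ratios between neighbours were chosen after values were seen and are given without a test.

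The other neighbour ratios were as follows. mt-Nd2 over mt-Nd1 was at -0.94 ± 0.20 in controls and -0.62 ± 0.08 in knockouts (mean log2 ratio, SD, n = 3 each). mt-Nd4l_4 over mt-Nd3 was at 1.01 ± 1.12 in controls and -0.92 ± 0.19 in knockouts. mt-Nd5 over mt-Nd4l_4 was at 0.02 ± 0.24 in controls and -0.45 ± 0.06 in knockouts. mt-Nd6 over mt-Nd5, genes that overlap at their ends on opposite strands, was at -3.75 ± 0.19 in controls and -4.34 ± 0.19 in knockouts. In each of these pairs all knockout libraries lay on the same side of all controls, and the smallest gap was that of mt-Nd2 over mt-Nd1, between -0.75 in control 3 and -0.69 in knockout 1.

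**Figure D4:**
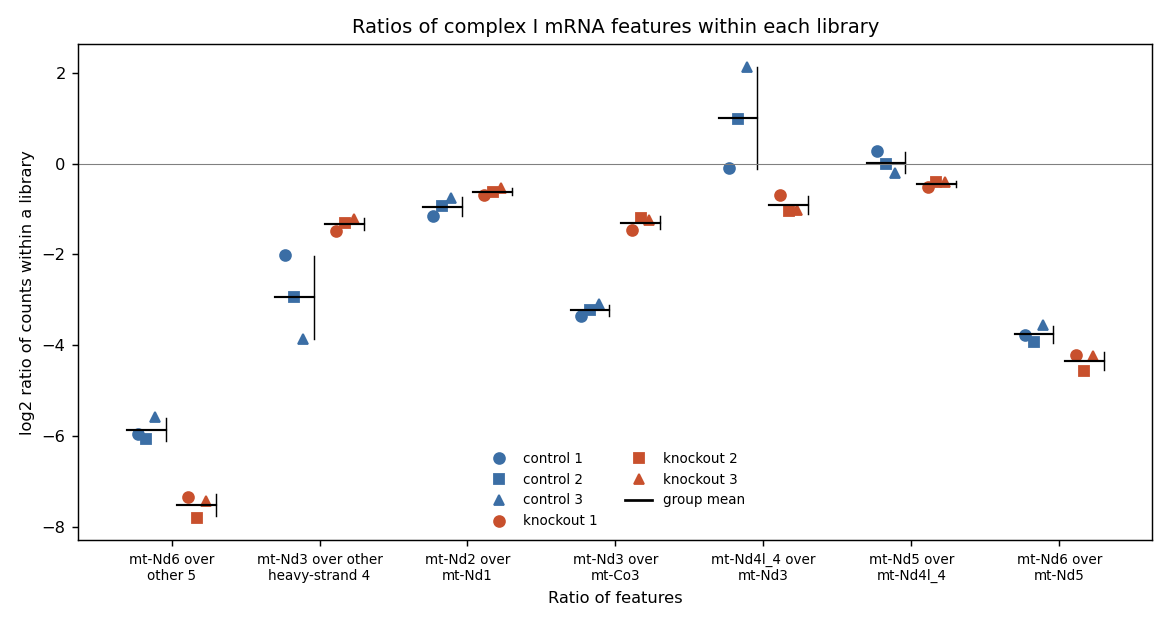
Log2 ratios of counts between complex I mRNA rows, and of mt-Nd3 to mt-Co3, within each library, with the group mean (horizontal bar) and 1 SD on each side (vertical bar). The controls are close together for mt-Nd6 over the other 5 rows and for mt-Nd3 over mt-Co3, and spread for mt-Nd4l_4 over mt-Nd3.

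Per kilobase of row, the order of the complex I mRNAs changed least at its lower end. mt-Nd6 was lowest in all 6 libraries. mt-Nd3 was highest in 5 of them, and in control 3 it came after mt-Nd1. In controls mt-Nd3 was at 5638 ± 1437 and mt-Nd1 at 5450 ± 3006 CPM per kilobase (SD, n = 3). There mt-Nd4l_4 was at 2965 ± 2156, mt-Nd2 at 2756 ± 1756 and mt-Nd5 at 2557 ± 1587. These SDs hold the spread between control libraries, which the rows share. Within each control library mt-Nd3 and mt-Nd1 were both above mt-Nd4l_4, mt-Nd2 and mt-Nd5. The order among mt-Nd4l_4, mt-Nd2 and mt-Nd5 differed between the controls. In knockouts the order was the same in each library: mt-Nd3 at 8654 ± 1020, mt-Nd1 at 3053 ± 298, mt-Nd2 at 1831 ± 169, mt-Nd4l_4 at 952 ± 36.2, mt-Nd5 at 639 ± 26.6 and mt-Nd6 at 111 ± 10.1 CPM per kilobase (SD, n = 3), each above the next by more than their SDs.

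**Figure D5:**
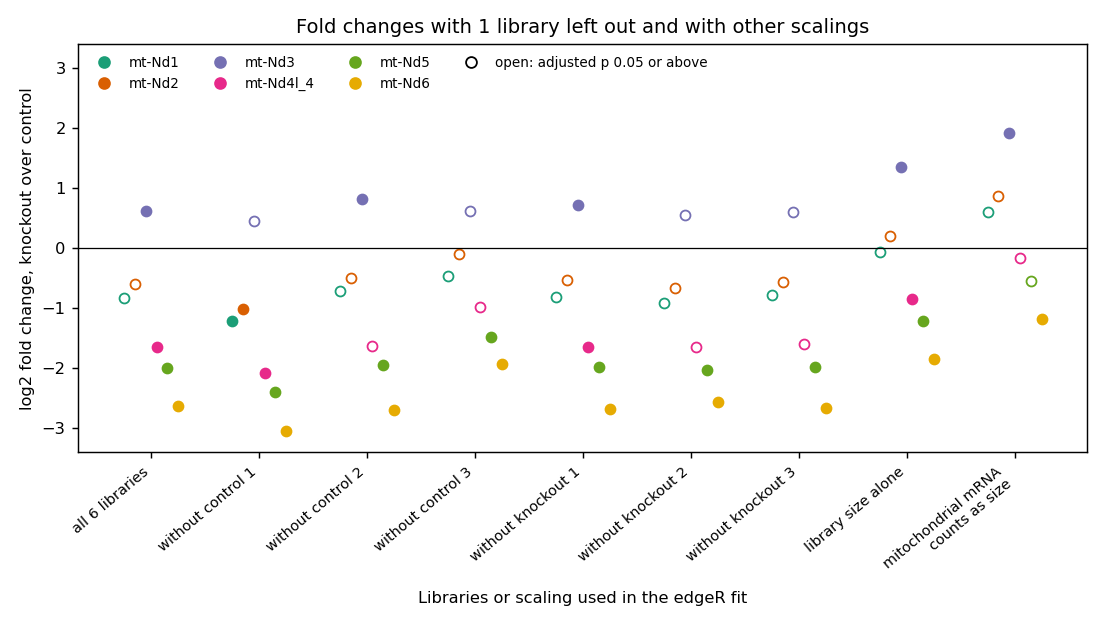
Log2 fold change of each complex I mRNA row with all 6 libraries, with each library left out, and with 2 other scalings (edgeR). Filled points have an adjusted p under 0.05. mt-Nd3 stays above 0 and mt-Nd6 stays lowest in every column, while mt-Nd2 is above 0 with library size alone and mt-Nd1 and mt-Nd2 are above 0 with mitochondrial mRNA counts as the size.

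Stretches of 4 of the 6 rows have a near-identical annotated copy in the nuclear genome (at least 95% identity over at least 100 bases). For mt-Nd3 the copy is the pseudogene Gm28438 on chromosome 1 (24612775 to 24613119, minus strand), which differs at 1 of 345 compared bases, T3C, counted from the first base of mt-Nd3. The first 18 bases of both are shown, with that base in capitals.
mt-Nd3: atTaacctgtacactgtt
Gm28438: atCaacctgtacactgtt

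For mt-Nd4l_4 the copies are Gm10222 and Gm28439, identical over 294 and 876 bases, for mt-Nd5 Gm4076 (95.2% over 954 bases) and for mt-Nd2 Gm13339 (96.7% over 510 bases). Gm28438, Gm10222, Gm28439 and Gm4076 had 0 counts in all 6 libraries. For Gm13339 the libraries held 3, 0 and 1 reads (controls 1, 2 and 3) and 9, 4 and 5 reads (knockouts), which came to 0.0128% of the counts of mt-Nd2. None of these copies passed the filter on low counts. A read from a stretch that is identical in both places cannot be assigned by its sequence, and no source used here says how such reads were counted. No copy was found by these limits for mt-Nd1 and mt-Nd6.

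Across the 6 libraries, the mitochondrial row whose log2 CPM was most like that of mt-Nd1 was mt-Atp8_6 (Pearson's r = 0.98). For mt-Nd2 it was mt-Nd1 (r = 0.96), for mt-Nd4l_4 and mt-Nd5 it was mt-Cytb (r = 0.98 and above 0.99), and for mt-Nd6 it was mt-Nd5 (r = 0.99). mt-Nd3 was unlike the rest, with a highest r of 0.25, with mt-Nd2, and a lowest of -0.63, with mt-Co1. Of 7298 nuclear genes with a mean of at least 10 CPM, Gxylt1, Smim13 and Rnf6 had the profiles most like the mean of the 6 rows. These are descriptions over 6 libraries that share the spread of the controls.

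Of 36 nuclear subunit genes tested, 14 were lower, 0 were higher and 22 did not pass (edgeR), with a median log2 fold change of -0.30. At an unadjusted p under 0.05, with DESeq2 and with limma-voom, the number higher was also 0. Over all genes tested 17.8% were lower and 18.7% higher, which is the background for each list here with TMM. Of the 7 core subunits, which carry the flavin and the iron-sulfur clusters, 4 fell. Among these, Ndufs1, the largest iron-sulfur subunit, went from 463 ± 78.3 to 244 ± 40.1 CPM (log2 fold change -0.93, adjusted p = 2.79e-03), Ndufs8 was at -0.59, Ndufv2 at -0.68 and Ndufs7 at -0.58. Of the 29 accessory subunits 10 fell, including Ndufa8 (-0.96), Ndufs6 (-0.79), Ndufv3 (-0.83) and Ndufab1, the mitochondrial acyl carrier protein (-0.71). With library size alone 0 of the 36 were lower and 9 were higher. Over all 14302 genes tested, 8093 were higher and 552 lower on that scale. There Ndufs1, Ndufa8, Ndufs6, Ndufv3 and Ndufab1 were at -0.26 or closer to 0. Ndufs7, Ndufs8 and Ndufv2 were at 0.11, 0.10 and 0.01. Of the 16 assembly factors tested, Foxred1 fell, at -0.51, and 2 rose, Ndufaf2 at 0.59 and Nubpl, an iron-sulfur cluster factor of complex I, at 0.61. The calls of the assembly factors were no more frequent than over all genes. The number of rises went to 0 without control 1, control 2, knockout 2 or knockout 3 and to 1 without control 3. With library size alone Foxred1 was at 0.17, not called.

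Among genes that make, cut and protect mitochondrial RNA, calls were about as frequent as over all genes (18.7% higher and 17.8% lower). Of 21 tested genes of processing and decay 4 rose and 5 fell, Elac2 among the latter, with a median of 0.10. Elac2 went from 14.02 ± 1.02 to 5.84 ± 0.608 CPM (log2 fold change -1.27, edgeR adjusted p = 2.12e-04). Fastk, whose mitochondrial product is known for binding the mt-Nd6 mRNA and is needed for it, was at 89.7 ± 8.16 CPM in controls and 60.3 ± 4.61 CPM in knockouts (-0.57, adjusted p = 4.74e-03). Rexo2, which degrades short RNAs, rose by 0.84 and Pde12, a deadenylase, by 0.74, and Trmt10c, a subunit of mitochondrial RNase P, by 0.67. Lrpprc, which stabilises heavy-strand mRNAs, was at -0.49 (adjusted p = 0.0225). Of 5 tested transcription genes 1 was called, Tfb2m, at -0.43 (adjusted p = 0.0365), a call that was kept without control 1 (-0.52, adjusted p = 0.0310) and lost without any other single library (adjusted p = 0.0565 to 0.140). With library size alone Fastk and Lrpprc turned to 0.13 and 0.19 and Tfb2m to 0.27. Elac2 was at -0.59 on that scale, still called lower (edgeR adjusted p = 0.0281).

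The tissue label held against its markers. Cardiomyocyte markers such as Myh6, at 19271 ± 920 CPM in controls, were detected in all libraries. Summed over 10 genes they were at 40831 to 42189 CPM in controls and 20918 to 23160 CPM in knockouts. By edgeR with TMM 4 of 10 were lower. Over all genes tested 17.8% were lower and 18.7% higher, the background for the marker counts with TMM. Endothelial markers (8 genes, 5 lower) summed to 653 to 739 and 482 to 537 CPM, smooth muscle and pericyte markers (7 genes, 2 lower and 1 higher) to 812 to 1039 and 552 to 646 CPM, and fibroblast markers (8 genes, 1 higher) to 1132 to 1679 and 1680 to 2952 CPM. Macrophage markers (8 genes, 0 called by edgeR, and 1, Adgre1, higher at an unadjusted p under 0.05) summed to 148 to 165 and 143 to 181 CPM, and erythroid markers (6 genes, 1 higher) to 521 to 1789 and 1436 to 2936 CPM. Of 9 skeletal muscle genes 2 passed the filter, Acta1, which was higher, and Ckm, which was lower. With library size alone endothelial markers had 3 higher and 0 lower, and cardiomyocyte markers 2 higher and 2 lower. On that scale 8 of 8 fibroblast, 7 of 8 macrophage and 6 of 6 erythroid markers were higher. Smooth muscle and pericyte markers had 2 higher and 1 lower. Over all 14302 genes tested, 8093 were higher and 552 lower on that scale. No gene of these lists was at 0 in all libraries. The part of these marker changes in the values of the complex I mRNAs was not tested.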

How the data were processed

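RNA of 6 hearts, 3 per group, was sequenced in paired-end TruSeq libraries, per the labels' protocols. HISAT2 2.0.5, SAMtools 1.5, featureCounts 1.5.1, DESeq2 1.16.1 and the build mm10 are named in the submitters' processing notes, without roles or options. The authors deposited whole-number counts per gene, with no normalisation. The authors' deposited table gives log2 fold changes with a standard error, adjusted p-values, a mean scaled signal and a test statistic, a score without a fixed range. The deposited size-scaled values were not used. The series design names 4 technical replicates per mouse, and 1 count column per mouse was used.

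Counts were tested with edgeR 4.0.16 in R 4.3.3 (glmQLFit and glmQLFTest, TMM, filterByExpr with its minimum count of 10, no block), with Benjamini-Hochberg adjustment over all genes tested. The SE is the log2 fold change divided by the square root of F. Shares and ratios were compared with two-sided exact permutation tests. P-values measure the spread between these mice. Nuclear copies were sought with blastn 2.17.0 in GENCODE transcripts. Gene symbols of the 51875 Ensembl rows were taken from the authors' deposited table.

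The members and lists were chosen with earlier results of these data known. Named genes are Elac2, the 6 rows, other mitochondrial rows they are compared with, up to 4 called genes with the smallest adjusted p per complex I or mitochondrial RNA list, and the nuclear copies. Copies, all under the 1 CPM the rule asks for, and Pde12, Lrpprc and the marker genes were named outside this rule. Likeness was Pearson's r of log2 CPM with 0.5 added. Libraries of a group differed by more than sampling noise (chi-square per degree of freedom at least 8.93). The alternatives comprised library size alone, RLE scaling, mitochondrial mRNA counts as library size, TMM computed on nuclear rows, no filter, at least 50 counts in 3 libraries, DESeq2 1.42.0, limma-voom (limma 3.58.1), a robust fit, the replicate block, each library left out, and the authors' deposited table.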

Additional observations from a re-analysis of the deposited data

How the results depend on the processing

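Over the alternatives run, the log2 fold changes of mt-Nd4l_4, mt-Nd5, mt-Nd6 and mt-Nd3 kept their direction. That of mt-Nd4l_4 ranged from -2.08 (without control 1) to -0.16 (mitochondrial mRNA counts as library size) and was not called in several of these fits. With mitochondrial mRNA counts as library size 1 of the 6 rows was lower, 10096 genes were higher and 149 lower, and mt-Nd1 and mt-Nd2 turned to 0.60 and 0.87. Library size alone gave 8093 higher and 552 lower genes and mt-Nd2 at 0.20. No filter gave 5 of the 6 rows lower, and the filter of 50 counts gave 0 higher (edgeR adjusted p = 0.0507 for mt-Nd3). With each library left out in turn, 0 to 1 rows were higher and 2 to 5 lower, and 1899 to 2903 genes higher and 1795 to 2934 lower. The complex I share difference was then 4.61 (without control 1) to 11.2 percentage points, and that of mt-Nd4l_4 -1.55 to 0.842, the last without control 3.

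On 2 other scales most genes were called higher, which is the background for the list counts there. Of all 14302 genes, 8093 were higher and 552 lower with library size alone. With mitochondrial mRNA counts as the size, 10096 were higher and 149 lower. The lists held 36 nuclear subunits, 16 assembly factors, 5 transcription genes and 21 processing and decay genes tested. Nuclear complex I subunits had 9 higher and 0 lower with library size alone, and 20 higher and 0 lower with mitochondrial mRNA counts as the size. Assembly factors had 10 higher and 0 lower, and 13 higher and 0 lower, on these scales. They had 0 higher with DESeq2 and in the authors' deposited table, 1 higher with the block, and 2 lower with no filter, the filter of 50 counts, limma-voom and a robust fit. Leaving out 1 library gave 0 to 2 higher and 1 to 2 lower. Transcription genes had 2 and 4 higher and 0 lower on these scales, and 0 lower with no filter, DESeq2, the block and the authors' deposited table, and 0 to 1 lower with 1 library left out. Processing and decay genes had 13 higher and 1 lower, and 17 higher and 0 lower, on these scales. They had 3 lower with no filter, DESeq2 and the authors' deposited table, 2 lower with the block, and 3 to 6 higher and 2 to 5 lower with 1 library left out. The cause of these differences was not tested.

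With the replicate number as a block 2 of the 6 rows were lower and 1 higher, mt-Nd4l_4 losing its call, and 2178 genes were higher and 2115 lower. The labels do not say that the numbers pair the mice, and the correlations between libraries that share a number were -0.198, 0.085 and -0.087. For shares and ratios the block cannot change the difference of the means, since each number occurs once in each group. The exact sign-flip p was 0.25 or above, and 0.25 is the smallest that 3 pairs allow. Counts per kilobase and rRNA in the denominator kept the direction of each share. With rRNA, two-sided exact permutation p was 0.2 for the complex I, mt-Nd1 and mt-Nd6 shares, against 0.1 without it. Per kilobase it was 0.2 for mt-Nd1. For mt-Nd2 and mt-Nd3 it stayed at 0.1 both ways. Of the mitochondrial mRNA rows only mt-Nd1, mt-Nd6 and mt-Cytb have no nuclear copy by the limits above. Within these rows alone the complex I, mt-Nd1 and mt-Nd6 shares and the mt-Nd6 ratio kept their direction. That complex I share sets mt-Nd1 and mt-Nd6 against mt-Cytb and leaves out mt-Nd3. It therefore cannot show if the share of the 6 rows depends on reads from copies. Rows that have a copy could not be examined in this way. Each group holds 3 mice, and the effect of read depth was not tested.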
